A study of Homo sapiens with 14 samples.

Results

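A set of 64 genes was almost unread in untreated A549 cells and clearly read after palbociclib and indisulam were given together. The genes were chosen by their measured counts: of the 19895 annotated protein-coding genes that were counted, 6465 had 3 or fewer reads in both untreated A549 libraries (called silent here), and 70 of these had 40 or more reads in both libraries of the combination. Symbols starting with MUC, MMP, COL, CXCL, CCL or IL and a digit were left out, which removed 6 genes and left 64 members. The difference between untreated cells and the combination was therefore selected on these libraries and is described without a test. What the rule did not use are the libraries of the single drugs, of PF-06873600 and of another cell line.

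A549 is a lung cancer line and SUM159 a triple negative breast cancer line. A549 cells were untreated, given 2 μM palbociclib, 0.5 μM indisulam or both drugs for 10 days, or given 0.5 μM PF-06873600 for 7 days. SUM159 cells were untreated or given 0.5 μM PF-06873600 for 7 days. Each group had 2 libraries, 14 in all, which the submitters describe as technical duplicates. The tests below therefore measure the spread between these libraries and not that between independent cultures. When the untreated cells were harvested is not given in the sources used here. The contrasts of PF-06873600 with the other drugs mix the compound with the time of treatment.

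Palbociclib blocks the cyclin-dependent kinases CDK4 and CDK6, which phosphorylate RB and let a cell enter S phase. Indisulam ties the splicing factor RBM39 to the ubiquitin ligase receptor DCAF15, so that RBM39 is degraded and splicing errors accumulate. PF-06873600 inhibits CDK2 together with CDK4 and CDK6. Senescent cells, which have stopped dividing for good, are known for secreting cytokines, proteases and matrix proteins. Several members belong to the skin: involucrin (IVL) and the small proline-rich proteins (SPRR1A, SPRR3) are cross-linked under the membrane of a dying keratinocyte into the cornified envelope, and late cornified envelope proteins such as LCE3D are added as it matures.

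Most of what follows turns on a few of these genes, and the 250 bases before the annotated start are shown for the 4 cornified envelope genes, which lie in the same region of chromosome 1, and for MAF, the member with the highest count under the combination. The windows come from RefSeq on GRCh38.p14, are read on the gene's own strand from 5′ to 3′ and end at the base before the start. Capitals mark the TATA box (TATAAA), the AP-1 site (TGANTCA) and the cyclic AMP response element or CRE (TGACGTCA), searched on both strands. IVL lies at chr1:152908296-152908545 on the plus strand, SPRR1A at chr1:152983831-152984080 on the plus strand, SPRR3 at chr1:153001499-153001748 on the plus strand, LCE3D at chr1:152580517-152580766 on the minus strand and MAF at chr16:79600738-79600987 on the minus strand.
IVL: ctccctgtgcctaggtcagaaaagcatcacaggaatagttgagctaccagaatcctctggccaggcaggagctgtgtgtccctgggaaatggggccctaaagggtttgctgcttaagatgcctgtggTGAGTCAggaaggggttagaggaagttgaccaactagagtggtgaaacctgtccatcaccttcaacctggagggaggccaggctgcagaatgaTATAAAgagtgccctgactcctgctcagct
SPRR1A: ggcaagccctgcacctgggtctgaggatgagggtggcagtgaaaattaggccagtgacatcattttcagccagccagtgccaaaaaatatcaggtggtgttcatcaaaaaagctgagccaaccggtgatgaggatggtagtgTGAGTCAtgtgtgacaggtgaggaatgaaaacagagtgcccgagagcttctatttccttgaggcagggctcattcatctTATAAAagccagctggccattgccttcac
SPRR3: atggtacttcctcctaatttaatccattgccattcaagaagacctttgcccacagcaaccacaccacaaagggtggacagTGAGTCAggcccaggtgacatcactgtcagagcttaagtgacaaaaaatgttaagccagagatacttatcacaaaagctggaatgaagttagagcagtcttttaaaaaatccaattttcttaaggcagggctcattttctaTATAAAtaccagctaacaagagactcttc
LCE3D: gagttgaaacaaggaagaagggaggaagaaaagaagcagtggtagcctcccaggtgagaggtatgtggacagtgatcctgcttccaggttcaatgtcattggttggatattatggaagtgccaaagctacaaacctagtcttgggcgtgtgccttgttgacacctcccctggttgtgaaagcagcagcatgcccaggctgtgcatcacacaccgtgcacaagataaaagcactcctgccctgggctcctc
MAF: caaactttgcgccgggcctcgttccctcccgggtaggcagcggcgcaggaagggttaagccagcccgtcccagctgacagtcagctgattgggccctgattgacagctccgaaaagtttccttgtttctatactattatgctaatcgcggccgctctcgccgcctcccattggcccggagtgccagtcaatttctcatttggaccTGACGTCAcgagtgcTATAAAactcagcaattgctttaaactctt

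IVL held TATAAA from base -30 and TGANTCA from base -123, counted from the start. SPRR1A held them from bases -29 and -108, and SPRR3 from bases -29 and -170. The windows of these 3 genes therefore shared the same pair of letters in the same order. LCE3D held none of the 3 motifs. MAF held TATAAA from base -30 and TGACGTCA from base -45. Over all 15325 protein-coding windows of 300 bases (250 before and 50 after the start), TATAAA was found in 9.62%, TGANTCA in 5.74% and TGACGTCA in 2.64%. Over the 4434 windows of silent genes that were not members the shares were 18.7%, 8.25% and 1.26%. Only 48 of the 64 members had a window. Among these the shares were 16.7%, 14.6% and 6.25%, so TATAAA was no more frequent than in the other silent genes. The windows printed above are a choice and do not stand for the set. The shares were not tested.

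Library totals, the reads counted on genes, ran from 13060374 to 21149256, so that 3 counts correspond to 0.142 to 0.23 CPM, the count relative to the library total. The 64 genes together made up 4.55 and 4.13 CPM of the untreated A549 libraries, 17.7 and 17.4 CPM with palbociclib, 79.3 and 82.1 CPM with indisulam and 553 and 557 CPM with the combination. They made up 146 and 139 CPM with PF-06873600 in A549, 980 and 915 CPM in untreated SUM159 and 1606 and 1570 CPM with PF-06873600 in SUM159. The labels of the lines were checked on fixed markers. CDKN2A, which A549 has lost, was at 0 in all 10 A549 libraries, but it ran only from 0 to 0.181 CPM in SUM159 and so did not separate the lines. KRT8 ran from 1908 to 5680 CPM in A549 and from 260 to 433 CPM in SUM159, and VIM was at 3609 CPM or more in SUM159.

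**Figure D1:**
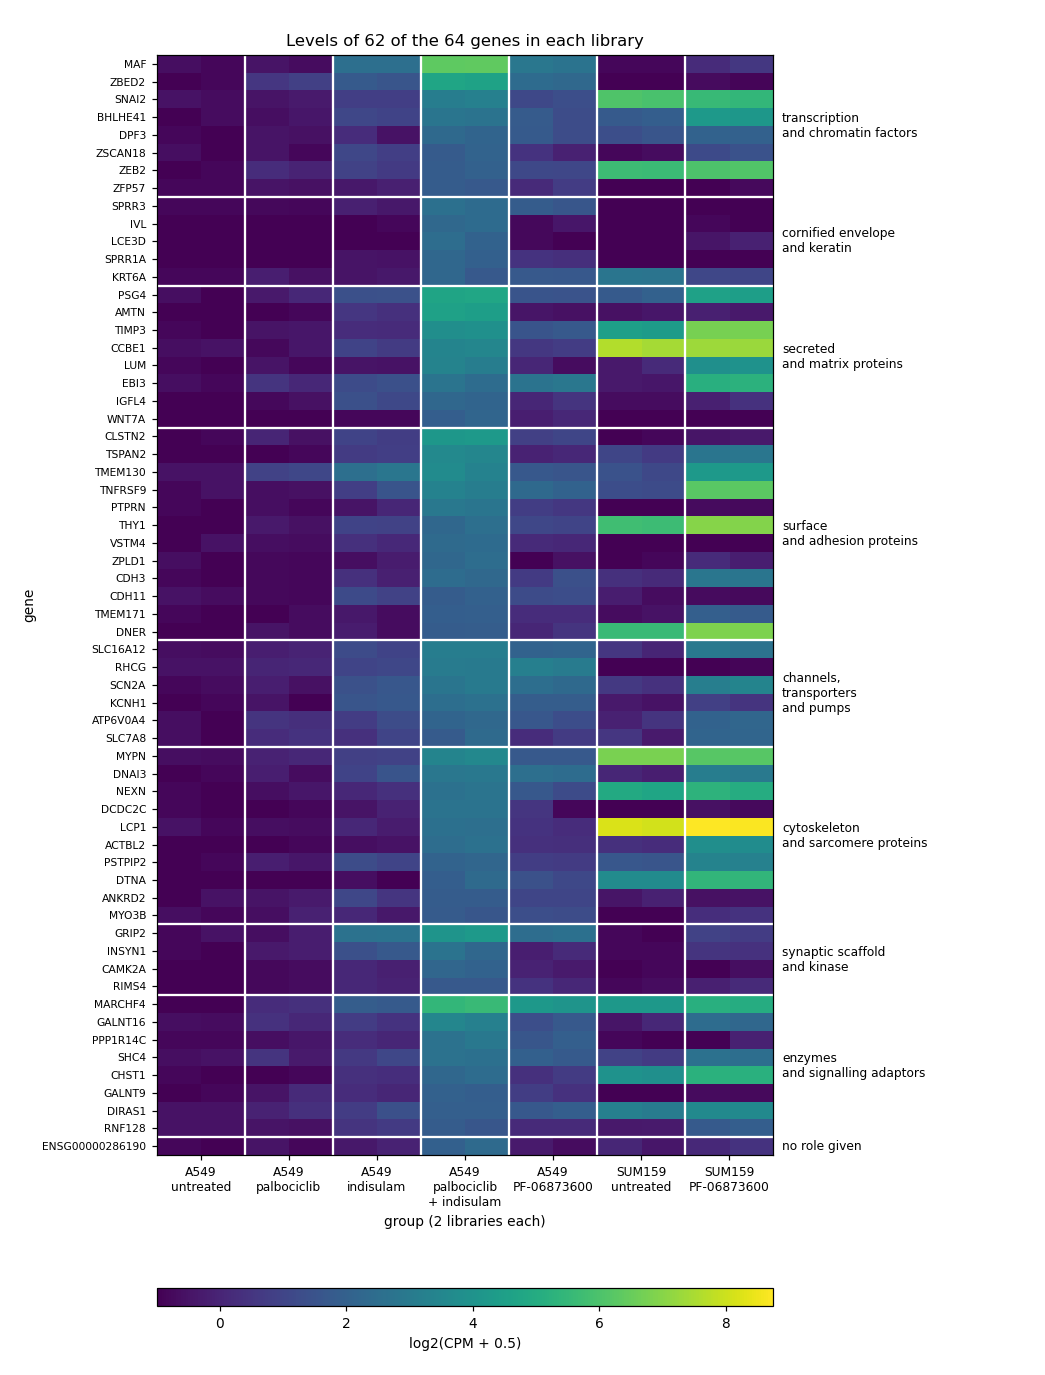
Level of 62 of the 64 genes (vertical axis, grouped by role) in each of the 14 libraries (horizontal axis, 2 columns per group), as log2(CPM + 0.5) on the colour scale. The untreated A549 columns are dark and the combination columns light because the rule chose them so, while indisulam and PF-06873600 lie between, and SUM159 is bright for genes such as LCP1 and CCBE1.

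With the combination, the members' mean levels ran from 2.78 CPM for MYO3B to 81 CPM for MAF, with a median of 5.33 CPM. Per kilobase of exon, the order was led by AMTN, the enamel protein amelotin, at 22.3 ± 1.57 RPKM (SD, n = 2). MAF, a basic leucine zipper transcription factor, followed at 11.6 RPKM, ZBED2, a zinc finger transcription factor, at 11.3 RPKM, and MARCHF4, a membrane-bound ubiquitin ligase, at 9.36 RPKM. The lowest was ZEB2 at 0.127 RPKM, and the median was 1.24 RPKM, so most members were read at a low level even with the combination. In bulk RNA, more cells that express a gene and more RNA per cell cannot be told apart.

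MAF had 2 and 1 counts in untreated A549 cells, 3 and 2 with palbociclib, 78 and 83 with indisulam, 1128 and 1275 with the combination and 90 and 97 with PF-06873600. Its ratio of combination to untreated cells was 803-fold, with a counting interval of 274 to 3896 (95%, counting error only). The combination libraries stood far above all others, and palbociclib stayed at the level of untreated cells. AMTN had 0 counts in both untreated libraries, 0 and 1 with palbociclib, 14 and 12 with indisulam, 333 and 332 with the combination and 3 in each PF-06873600 library. Against the floor of 3 counts per library the combination was at least 111-fold higher, and PF-06873600 left AMTN at its floor. MARCHF4 had 0 counts in both untreated libraries, 9 and 13 with palbociclib, 46 and 44 with indisulam, 612 and 751 with the combination and 236 and 259 with PF-06873600, at least 227-fold higher with the combination than untreated. It thus had counts in all 4 treated groups of A549, without overlap between any of them. In all, 14 members had 0 counts in both untreated libraries, and for the rest the ratio rests on 1 to 6 untreated reads.

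The limits cut through a continuous range of counts. Just inside the upper limit were MYO3B (42 and 40 with the combination), RNF128 (44 and 40) and RIMS4 (40 and 43), and just outside it FYB1 (41 and 39), ECM2 (39 and 41) and DGKI (38 and 44). Just inside the lower limit, with 3 counts in each untreated library, were TMEM130, RNF128 and RHCG. CPA4, with 4 and 0 counts untreated and 2127 and 2245 with the combination, fell just outside it, as did SLC6A17 (4 and 1 untreated) and LYPD1 (4 and 1 untreated). When the rule was applied to the libraries numbered 1 alone it chose 88 genes, and 64 of them (72.7%) also lay within the limits in the libraries numbered 2, with no untreated count above 8 and no combination count below 32. In the reverse direction 112 genes were chosen and 64 (57.1%) lay within the limits, with no untreated count above 11 and no combination count below 22.

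The first question was how much of this expression each single drug gave. With palbociclib alone 0 of the 64 genes reached 40 counts in both libraries, as did 0% of the 6465 silent genes, and 32 stayed at 3 or fewer in both, against 95.4% of the silent genes. With indisulam alone 4 reached 40 counts in both libraries (MAF, MARCHF4, GRIP2 and TMEM130), against 0.0619% of the silent genes, and 7 stayed at 3 or fewer, against 90.1%. These shares of the silent genes include the members, and since the members were picked on the combination, which contains both drugs, the shares are given as a description. Palbociclib reached a median of 3.05% of the combination level (from 0% to 20%, the latter in SLC7A8) and indisulam 12.4% (from 0% in LCE3D to 54.8% in TMEM130). In all 64 genes the mean with the combination was above the sum of the single-drug means, and in 58 it was above 2 times that sum. The sum of the single drugs was at most 68.4% of the combination, in TMEM130, with a median of 16.5%. The low palbociclib and indisulam values entered no part of the rule, but the combination values did, so the excess carries no test.

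The single drugs could be compared with each other without contrasting the libraries that chose the genes. All 64 genes were tested because their combination libraries passed the filter on low counts. With 3 or fewer counts in both palbociclib libraries, 32 of them could hardly be called lower. The shares over all genes are therefore given as a description. Indisulam gave higher levels than palbociclib in 43 of the 64 genes, and lower levels in 0 (edgeR's quasi-likelihood test, adjusted p under 0.05), against 24.8% of all 15780 genes called higher and 13.6% called lower. At an unadjusted p under 0.05 the numbers were 47 and 0, and DESeq2 called 32 and 0. With only the 2 compared groups in the model and its filter, 33 were higher and 0 lower. The median log2 difference was 2.17 over the members and 0.0878 over all genes tested. Under another scaling of the libraries (TMM) 39 members were higher, while the calls over all genes moved from 3919 higher and 2143 lower to 2952 and 3001.

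MAF and TSPAN2 were among the members with the largest fitted differences. MAF differed by 4.95 ± 0.30 (log2, SE, n = 2 per group, edgeR adjusted p = 2.42e-08). TSPAN2, a tetraspanin of myelinating cells, had 0 and 1 counts with palbociclib, 16 and 19 with indisulam and 162 and 164 with the combination, and its difference was 4.83 ± 0.67 (adjusted p = 8.87e-05). In both genes both indisulam libraries lay above both palbociclib libraries, as they did in 54 of the 64, against 43.8% of all genes tested. GRIP2, a scaffold of AMPA-type glutamate receptors, had 1 and 3 counts untreated, 2 and 6 with palbociclib, 85 and 92 with indisulam, 225 and 287 with the combination and 67 and 89 with PF-06873600. Besides GRIP2, the highest counts with indisulam were those of TMEM130 (78 and 101) and MAF.

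Genes that neither single drug brought above 3 counts in any library were few. They were LUM, ACTBL2, IVL, LCE3D, DTNA, SPRR1A and WNT7A, 7 in all. LUM encodes lumican, a small leucine-rich proteoglycan of collagen matrix. It had 1 and 0 counts untreated, 3 and 1 with palbociclib, 3 and 3 with indisulam, 137 and 127 with the combination and 7 and 2 with PF-06873600. ACTBL2, a beta-actin-like gene, had 0 counts in both untreated libraries, 0 and 1 with palbociclib, 2 and 3 with indisulam, 73 and 89 with the combination and 10 and 12 with PF-06873600. LUM was thus at the combination level in no other A549 group, while ACTBL2 had a trace with PF-06873600. Reads of 65 bases from ACTBL2 can be shared with the abundant actins, so its level is uncertain.

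The second question was whether PF-06873600 alone, which acts on CDK2 as well as CDK4 and CDK6, brought the same genes up. In A549 13 of the 64 reached 40 counts in both PF-06873600 libraries, against 0.263% of the silent genes, and 3 (AMTN, LCE3D and ZPLD1) stayed at 3 or fewer, against 90.3%. The median level was 24.9% of that with the combination, from 0.873% in LCE3D to 115% in EBI3. Compared with palbociclib, 55 of the 64 genes were higher and 0 lower (edgeR), against 23.9% higher and 21.7% lower of all genes tested. At an unadjusted p under 0.05 these numbers were 58 and 0, and DESeq2 called 49 and 0. With only the 2 compared groups in the model and its filter, 44 were higher and 0 lower. In the main fit all 64 again passed the filter through the combination libraries. The 32 with 3 or fewer counts in both palbociclib libraries could hardly be called lower, so the shares are a description. The median log2 difference was 2.73, or 2.66 with the 5 genes that were at 0 with palbociclib set to their lower bound, and -0.00577 over all genes tested. The 9 members not called were AMTN, CAMK2A, INSYN1, GALNT9, LCE3D, LUM, SLC7A8, ZPLD1 and ENSG00000286190. The contrasts of indisulam and of PF-06873600 with palbociclib share the palbociclib libraries, so their calls are not independent.

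**Figure D2:**
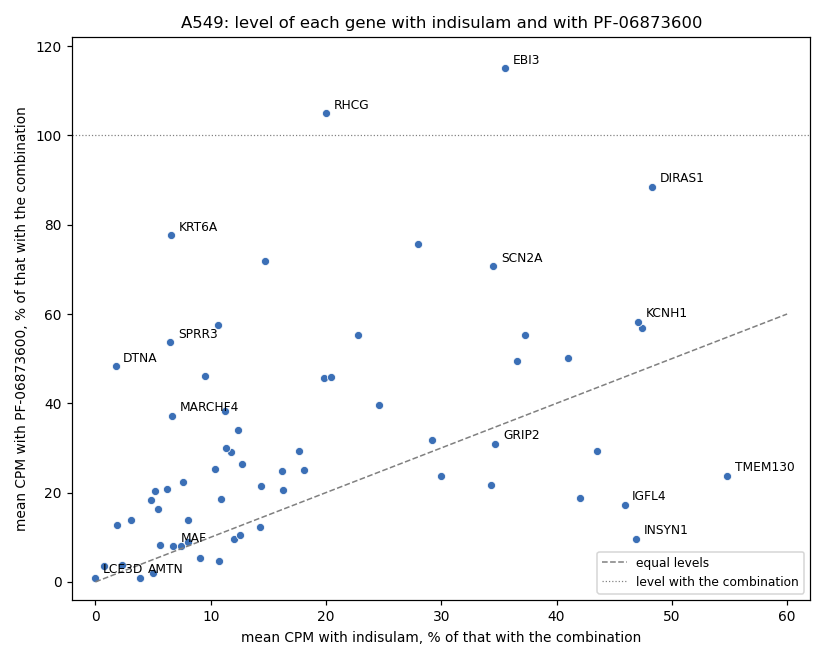
Each point is one of the 64 genes in A549, with its mean CPM with indisulam (horizontal axis) and with PF-06873600 (vertical axis) as a percentage of its mean CPM with the combination. EBI3 and RHCG lie above the dotted line at 100% and TMEM130, INSYN1 and IGFL4 lie below the dashed line of equal levels, while LCE3D is near 0% on both axes.

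Within A549, only 3 members had a library outside the combination that equalled or exceeded one of its libraries in CPM. They were EBI3, RHCG and KRT6A, and in each it was PF-06873600. EBI3 encodes the shared subunit of interleukins 27 and 35. It had 2 and 1 counts untreated, 12 and 9 with palbociclib, 27 and 32 with indisulam, 89 and 76 with the combination and 79 and 111 with PF-06873600. RHCG, an ammonium transporter of kidney collecting duct, had 3 and 3 counts untreated, 7 and 9 with palbociclib, 22 and 24 with indisulam, 111 and 119 with the combination and 113 and 125 with PF-06873600. For both genes the libraries of PF-06873600 and of the combination overlapped and the other A549 libraries lay below them.

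PF-06873600 and indisulam were then set against each other, again with all members passing the filter through the combination libraries. With only these 2 groups in the model, 26 members were higher with PF-06873600 and 6 with indisulam. The numbers that follow are from the main fit. PF-06873600 gave the higher level in 29 of the 64 genes and indisulam in 6 (edgeR), against 21.2% and 30.2% of all genes tested. The remaining 29 were not called, and the median log2 difference was 0.732, with -0.0947 over all genes. With TMM scaling the members' numbers were 29 and 5, and those over all genes moved from 3349 and 4761 to 4079 and 3800.

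DTNA, KRT6A and SPRR3 had the largest differences towards PF-06873600. DTNA encodes dystrobrevin alpha of the dystrophin complex. It had 0 counts in the untreated and palbociclib libraries, 2 and 0 with indisulam, 46 and 72 with the combination and 28 and 27 with PF-06873600, a log2 difference from indisulam of 4.64 ± 0.68 (SE, n = 2 per group, edgeR adjusted p = 1.13e-04). Against palbociclib DTNA was at least 9.4-fold higher with PF-06873600. SPRR3 differed by 3.01 ± 0.35 and KRT6A by 3.51 ± 0.42.

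Towards indisulam the largest were INSYN1, AMTN and IGFL4. INSYN1, a protein of inhibitory synapses, had 1 and 0 counts untreated, 4 and 6 with palbociclib, 30 and 42 with indisulam, 85 and 67 with the combination and 5 and 10 with PF-06873600, and its log2 difference was -2.23 ± 0.39 (adjusted p = 2.70e-04). AMTN differed by -2.05 ± 0.50 and IGFL4, of the IGF-like family, by -1.37 ± 0.35, the latter not called by DESeq2 (adjusted p = 0.0782) or without the first PF-06873600 library (0.0512). TMEM130, TSPAN2 and ZSCAN18 were the other 3 called in this direction, and of these TMEM130 kept its call under every alternative run. TSPAN2 lost its call with DESeq2 (adjusted p = 0.115) and when any of 3 of the 4 libraries compared was left out (edgeR adjusted p from 0.0636 to 0.0904). ZSCAN18 lost its call with DESeq2 (adjusted p = 0.205), with TMM scaling (0.0515) and when any of 3 of the 4 libraries compared was left out (0.0601 to 0.291). PF-06873600 therefore did not give a uniformly higher share of the combination level than indisulam.

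**Figure D3:**
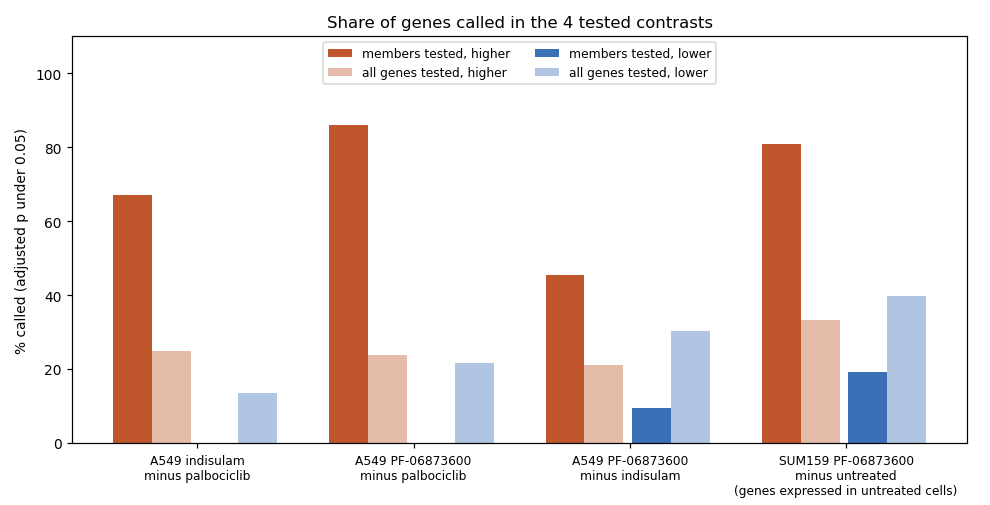
Percentage of genes called (vertical axis, adjusted p under 0.05) in each of the 4 contrasts tested (horizontal axis), with dark bars for members and pale bars for all genes, orange for higher and blue for lower. In the SUM159 contrast the genes counted are those at 0.594 CPM or more in both untreated libraries. Of these, 80.8% of the members and 33.3% of all genes were higher. In the A549 contrasts all 64 members are counted, since their combination libraries passed the filter.

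Grouped by what the proteins do, a grouping made after the members were known, the genes fell into 8 roles and 1 gene without a role given (ENSG00000286190, whose exons overlap NLRP1 on the same strand). The calls by role stand beside 43 of all 64 members higher with indisulam and 55 with PF-06873600 than with palbociclib. Over all genes tested the shares were 24.8% and 23.9%. No role was tested against the rest of the set. Transcription and chromatin factors numbered 8. Of these, 6 were higher with indisulam and 8 with PF-06873600 than with palbociclib. Under every alternative run that tested them, 5 and 6 of these calls held. SNAI2 and ZEB2, which repress epithelial genes such as CDH1, were among them, but ZEB2 lost its call for indisulam with DESeq2 (adjusted p = 0.239) and when any of the 4 libraries compared was left out (edgeR adjusted p from 0.0559 to 0.217). SNAI2 had 3 and 2 counts untreated, 3 and 5 with palbociclib, 18 and 19 with indisulam, 117 and 140 with the combination and 22 and 33 with PF-06873600. ZEB2 had 0 and 1, 9 and 8, 20 and 16, 44 and 55, and 22 and 26 counts in the same order. In A549 both stood highest with the combination, without overlap. CDH1 itself, which encodes E-cadherin, was at 160 and 152 CPM untreated and 130 and 126 CPM with the combination. It was at 144 and 136 CPM with palbociclib, 172 and 172 CPM with indisulam and lowest with PF-06873600, at 93.1 and 98.1 CPM. Its relation to SNAI2 and ZEB2 was not tested. ZBED2 had 0 and 1 counts untreated, 13 and 21 with palbociclib, 42 and 38 with indisulam, 364 and 374 with the combination and 63 and 71 with PF-06873600. BHLHE41, a repressor of the circadian clock, was at 39.6% of its combination level with PF-06873600.

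The 4 cornified envelope genes and KRT6A, a keratin of wounded skin, had a median of 5.2% of the combination level with indisulam and 20.3% with PF-06873600. IVL had 0 counts in the untreated and palbociclib libraries, 0 and 1 with indisulam, 62 and 74 with the combination and 1 and 4 with PF-06873600. SPRR1A had 0 counts in the untreated and palbociclib libraries, 3 and 3 with indisulam, 61 and 54 with the combination and 11 and 12 with PF-06873600. LCE3D had 0 counts in all 6 untreated, palbociclib and indisulam libraries, 72 and 57 with the combination and 1 and 0 with PF-06873600. These 3 genes were thus read almost only under the combination, with a smaller level of SPRR1A under PF-06873600 that was at least 3.91-fold above palbociclib (edgeR adjusted p = 2.63e-04). SPRR3 had 1 and 1 counts untreated, 1 and 1 with palbociclib, 6 and 4 with indisulam, 79 and 75 with the combination and 40 and 41 with PF-06873600. KRT6A had 1 and 1 counts untreated, 5 and 3 with palbociclib, 3 and 4 with indisulam, 61 and 44 with the combination and 37 and 44 with PF-06873600. Both had clear levels in 2 groups, the combination and PF-06873600. The calls of SPRR1A and SPRR3 for indisulam over palbociclib rest on 3 to 6 counts and were not made by DESeq2 (adjusted p = 0.0596 and 0.156) or when any of the 4 libraries compared was left out (adjusted p from 0.051 to 0.217). Close copies such as KRT6B, KRT6C and the other SPRR and LCE genes can share reads with these 5, which leaves their exact levels uncertain.

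**Figure D4:**
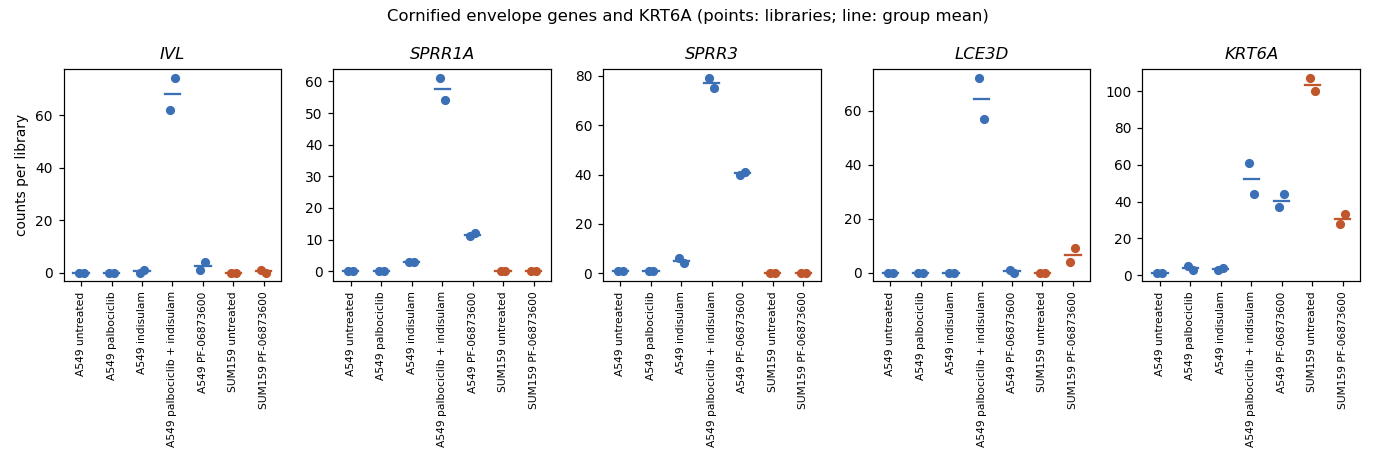
Counts per library (vertical axis) of 4 cornified envelope genes and KRT6A in the 7 groups (horizontal axis), with points for libraries, lines for group means, blue for A549 and orange for SUM159. IVL, SPRR1A and LCE3D exceed 50 counts in the combination alone, SPRR3 also reaches 40 and 41 with PF-06873600, and KRT6A falls from 107 and 100 to 28 and 33 counts in SUM159.

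The 4 envelope genes are the only members that lie within 500 kb of another member. They sit in the epidermal differentiation complex on chromosome 1, with 328030 bases from LCE3D to IVL, 72195 from IVL to SPRR1A and 15933 from SPRR1A to SPRR3. Between S100A10 and S100A1 (chr1:151982915-153632039, GENCODE release 44 on hg38) lay 63 protein-coding genes, of which 51 were silent in untreated A549. Of these, 4 were members, where 1.08% of all silent genes met the count limits. Another 40 stayed at 3 or fewer counts in both combination libraries, against 83.7% of all silent genes. The other 7 lay between. They included LCE3E, next to LCE3D, with 22 and 21 counts and FLG, the gene of filaggrin, with 11 and 10. On a list of 59 epidermal differentiation genes 41 were silent untreated, and 2 (IVL and KRT6A) were members, beside the same 1.08%. The list did not hold SPRR1A, SPRR3 or LCE3D. Over the 23 of the list that could be tested, 8 were higher and 1 lower with indisulam than with palbociclib, and 15 were higher and 3 lower with PF-06873600, where 24.8% and 23.9% of all genes were higher. Among keratinocyte markers KRT5 and KRT14 were at 0.142 CPM or less in the combination libraries, and KRT1 was at 0. The markers summed to 57.5 and 62.1 CPM untreated and 50.1 and 48.1 CPM with the combination. Most of this sum was KRT10 (38.3 and 39.7, then 27.1 and 26.1 CPM) and TP63 (19.2 and 22.3, then 18.4 and 17.1 CPM). IVL, a member, went from 0 to 4.4 and 4.76 CPM.

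Secreted and matrix proteins numbered 8. With the combination PSG4, a pregnancy-specific glycoprotein of the placenta, had 360 and 422 counts, against 2 and 0 untreated, 4 and 9 with palbociclib, 30 and 33 with indisulam and 31 and 37 with PF-06873600. TIMP3, a matrix-bound inhibitor of metalloproteinases, had 190 and 226 counts with the combination, against 1 and 0 untreated, 3 and 4 with palbociclib, 10 and 10 with indisulam and 31 and 45 with PF-06873600. CCBE1, needed to process the lymphatic growth factor VEGFC, had 142 and 163 counts with the combination, against 2 and 3 untreated. All 3 stood far above the other A549 groups. PSG4 has near-identical family members, so its reads could be split among them. LUM is also a fibroblast marker, and the other 3 markers on that list (PDGFRA, PDGFRB and DCN) were at 0.515 CPM or less in the combination libraries. The list summed to 10.6 and 9.27 CPM there and 0.204 and 0.267 CPM untreated, and LUM gave 9.71 and 8.17 CPM of it with the combination.

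Among the 13 surface and adhesion proteins, 9 were higher with indisulam and 12 with PF-06873600 than with palbociclib (24.8% and 23.9% of all genes). Under every alternative run that tested them, 6 and 9 of these calls held. CDH11, a cadherin of mesenchymal and bone cells, had 3 and 2 counts untreated, 1 and 1 with palbociclib, 26 and 21 with indisulam, 44 and 56 with the combination and 24 and 32 with PF-06873600. CDH3, the placental cadherin of basal epithelium, had 1 and 0, 1 and 1, 11 and 6, 69 and 69, and 14 and 34 counts in the same order. THY1, the mesenchymal surface protein CD90, had 0 counts in both untreated libraries and 61 and 84 with the combination. TNFRSF9, the co-stimulatory receptor 4-1BB, had 1 and 3 counts untreated, 2 and 3 with palbociclib, 18 and 36 with indisulam, 135 and 127 with the combination and 59 and 59 with PF-06873600. CLSTN2, a calsyntenin of synapses, was the highest of this role by CPM, with 248 and 282 counts under the combination against 0 and 1 untreated.

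TNFRSF9 and EBI3 were the only members on a list of 48 targets of NF-kB, of which 16 were silent in untreated cells. Over the 33 targets that could be tested, 21 were higher and 1 lower with indisulam than with palbociclib, and 19 were higher and 5 lower with PF-06873600, against the same shares of all genes. The lists of p53 targets (58 genes, 4 silent) and interferon-stimulated genes (79 genes, 18 silent) held 0 members. Over all silent genes 1.08% had 40 or more counts in both combination libraries, so 0 on so few silent genes says little. Of 56 p53 targets tested, 49 were higher and 0 lower with indisulam than with palbociclib, and 47 and 3 with PF-06873600. For 62 interferon-stimulated genes these numbers were 27 and 8, and 34 and 6. All genes gave 24.8% higher and 13.6% lower, and 23.9% and 21.7%. LCP1, the leukocyte plastin, was the only member on the senescence list of Purcell, which the study used. DNAI3, a dynein chain of cilia, was the only one on that of Casella, also used by the study. The study's lists of Hernandez-Segura (2 and 9 silent genes) and of Fridman (7 silent) held 0 members. Silent genes numbered 12 on the list of Purcell and 4 on that of Casella, so these numbers too say little. Of the blood markers CD3E was at 0 and PTPRC was at 0.142 CPM or less in the combination libraries. For 3 of the 7 markers both combination libraries lay above both untreated ones: CD14 went from 5.03 and 4.07 to 6.88 and 6.63 CPM, LYZ from 2.38 and 2.4 to 3.47 and 2.96 CPM and CD68 from 0.068 and 0.2 to 0.78 and 0.901 CPM. The list summed to 7.54 and 6.87 CPM untreated and 11.3 and 10.6 CPM with the combination, and its part in the members' levels was not tested.

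Channels, transporters and pumps numbered 7 and kept the largest share of the combination level under PF-06873600, with a median of 55.4%, and under indisulam, with a median of 30%. Neither share was tested against the other roles. SCN2A, a voltage-gated sodium channel of neurons, had 1 and 2 counts untreated, 5 and 3 with palbociclib, 31 and 40 with indisulam, 91 and 115 with the combination and 69 and 73 with PF-06873600. KCNH1, the potassium channel EAG1, had 0 and 1, 3 and 0, 36 and 41, 75 and 89, and 42 and 52 counts in the same order. Both were higher with indisulam and with PF-06873600 than with palbociclib, with log2 differences of 3.12 ± 0.39 and 4.14 ± 0.34 for SCN2A. They are among the 3 members on a list of 276 ion channel genes, of which 152 were silent in untreated A549. Over all silent genes 1.08% met the count limits, so this number says little about channels.

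Synaptic proteins numbered 4. All 4 were called higher with indisulam than with palbociclib, and 2 (GRIP2 and RIMS4) with PF-06873600 (24.8% and 23.9% of all genes). The indisulam calls of CAMK2A and RIMS4 were not made by DESeq2 (adjusted p = 0.124 and 0.112) or when any of 3 of the 4 libraries compared was left out (edgeR adjusted p from 0.0797 to 0.127 and from 0.0675 to 0.1). CAMK2A, the calcium-dependent kinase of synapses, had 0 counts in both untreated libraries, 1 and 2 with palbociclib, 8 and 6 with indisulam, 59 and 58 with the combination and 6 and 5 with PF-06873600. It was the only member on a list of 85 neuronal and synaptic genes, of which 50 were silent. Beside 1.08% of all silent genes this too says little. Neuron markers summed to 56.5 and 57.7 CPM untreated, 127 and 133 CPM with indisulam, 103 and 101 CPM with the combination and 59.6 and 60.2 CPM with PF-06873600. They did not move together. From untreated cells to the combination SYT1, MAP2 and TUBB3 rose, while RBFOX3 fell from 13.1 and 12.1 to 2.69 and 3.09 CPM. SNAP25 fell from 16.9 and 15.9 to 14 and 13.8 CPM. The part of these markers in the synaptic genes was not tested. Cytoskeleton and sarcomere proteins numbered 10. Of these, 10 were called higher with PF-06873600 than with palbociclib and 5 with indisulam (23.9% and 24.8% of all genes). Under every alternative run that tested them, 9 and 3 of these calls held. DCDC2C, with 12 and 1 counts under PF-06873600 and 0 and 1 under palbociclib, rested on 1 library: without it the log2 difference went from 3.44 to 0.75 (edgeR adjusted p = 0.771), and the replicate block gave an adjusted p of 0.0538. MYPN, myopalladin of the Z-disc, had 2 and 2 counts untreated, 6 and 9 with palbociclib, 19 and 21 with indisulam, 143 and 173 with the combination and 37 and 45 with PF-06873600. NEXN, an actin-binding protein of muscle, had 81 and 98 counts with the combination against 1 and 0 untreated. Of 8 enzymes and signalling adaptors, 6 were higher with indisulam and 7 with PF-06873600 than with palbociclib (24.8% and 23.9% of all genes). Under every alternative run that tested them, 3 and 6 of these calls held.

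The third question was what these genes did in a line of another origin. In untreated SUM159 cells 17 of the 64 had 40 or more counts in both libraries, against 4.61% of the genes silent in A549, and 24 had 3 or fewer, against 85.2%. With PF-06873600 35 had 40 or more, against 7.97%, and 13 had 3 or fewer, against 74.4%. The highest in untreated SUM159 were LCP1 (4826 and 4306 counts), CCBE1 (3278 and 2797), MYPN (1851 and 1774) and SNAI2 (1106 and 974). LCP1, CCBE1 and MYPN were also among 28 genes silent in A549 with 1000 or more counts in both untreated SUM159 libraries, of which 12 had 3 or fewer counts in both combination libraries of A549, with a median combination count of 3 and at most 133 among the non-members. At the other end 12 members had 3 or fewer counts in all 4 SUM159 libraries, among them IVL, SPRR1A, SPRR3, WNT7A, CAMK2A, RHCG and ZBED2.

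PF-06873600 was tested against untreated SUM159 cells in the 42 members that passed the filter on low counts. Of these, 37 were higher and 5 lower (edgeR), against 38.1% and 35.6% of all 15055 genes tested. Since 16 of the 42 passed through their treated libraries alone, they had to differ, and the comparison rests on the 26 at 0.594 CPM or more in both untreated libraries. Among these 21 were higher and 5 lower, against 33.3% higher and 39.7% lower of the 13495 genes at that level. The other 22 members were too low in both groups to be tested.

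Among the 26, TNFRSF9 had 33 and 29 counts untreated and 1306 and 1673 with PF-06873600, a log2 difference of 5.35 ± 0.11 (SE, n = 2 per group, edgeR adjusted p = 1.09e-14). TIMP3 had 369 and 319 counts untreated and 1820 and 2249 with PF-06873600 (2.33 ± 0.07). In both genes the treated libraries lay far above the untreated ones. EBI3, LUM and MYO3B, a myosin of sensory cells, belong to the 16 that passed through the treated libraries, and their counts are a description. EBI3 had 5 and 4 counts untreated and 595 and 797 with PF-06873600. LUM had 5 and 10 counts untreated and 239 and 320 with PF-06873600, and MYO3B had 0 in both untreated libraries and 12 and 18 with PF-06873600. LUM was accompanied by the other fibroblast markers here: the list summed to 160 and 154 CPM untreated and 1165 and 1206 CPM with PF-06873600, with DCN from 81.4 and 78.3 to 834 and 869 CPM, and their part in the LUM level was not tested. Over the targets of NF-kB, 40 of 41 tested were higher and 1 lower in SUM159, against 38.1% and 35.6% of all genes. Only TMEM171 went from 3 or fewer counts in both untreated libraries (2 and 3) to 40 or more in both treated ones (57 and 64).

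The 5 members that were lower with PF-06873600 in SUM159 were all expressed there without treatment. KRT6A went from 107 and 100 to 28 and 33 counts, a log2 difference of -1.99 ± 0.20 (adjusted p = 3.99e-07). MYPN went from 1851 and 1774 to 1257 and 1554 counts (-0.60 ± 0.05), SNAI2 from 1106 and 974 to 815 and 913 (-0.50 ± 0.07) and CCBE1 from 3278 and 2797 to 2769 and 3257 (-0.24 ± 0.06). These counts are not scaled, and the libraries of PF-06873600 were deeper. In A549 all 5 genes were higher with PF-06873600 than with palbociclib.

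**Figure D5:**
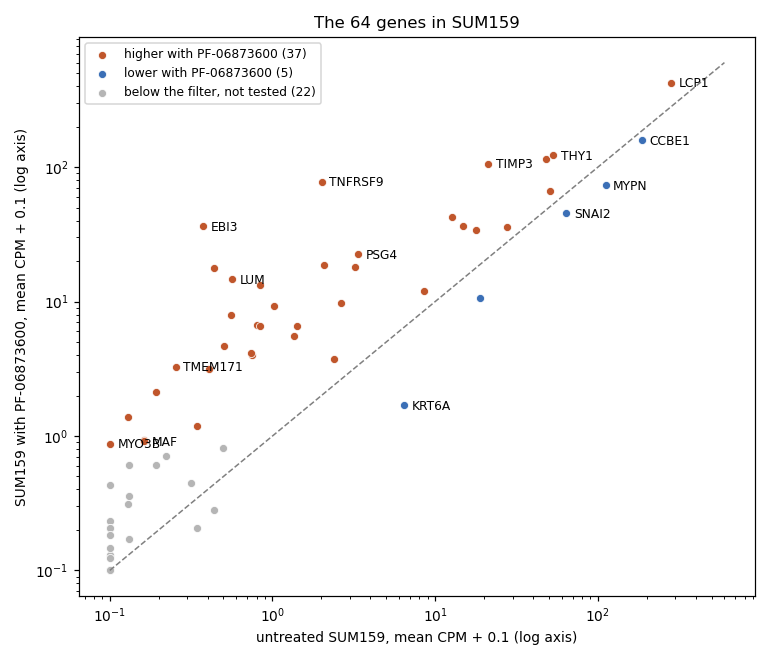
Mean CPM + 0.1 of each of the 64 genes in untreated SUM159 (horizontal axis, log) and in SUM159 with PF-06873600 (vertical axis, log), coloured by the call. The 37 genes called higher lie above the dashed line of equal levels, the 5 called lower, among them KRT6A, MYPN, SNAI2 and CCBE1, below it, and the 22 not tested sit at the lower left.

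MAF had 1 and 1 counts in untreated SUM159 and 11 and 21 with PF-06873600, whereas 90 and 97 were counted with PF-06873600 in A549. PSG4 went from 48 and 58 counts to 398 and 459 in SUM159, and MARCHF4 from 298 and 283 to 597 and 691, so these members also had reads in SUM159 before treatment. SUM159 cells treated with palbociclib and indisulam were not analysed here, which leaves the combination to A549.

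In the genome the members were spread over many chromosomes. A protein-coding gene on the same strand ended within 10 kb before the start of 9 members (14.1%), and of 19.3% of the 6395 silent genes that did not meet the limits. Such neighbours did not move together. ARSI, before CAMK2A, went from 8 and 11 counts untreated to 390 and 447 with the combination. PSG9, before PSG4, went from 1 and 0 to 14 and 21. MIGA1, before NEXN, went from 494 and 611 to 355 and 401, and ALLC, before DCDC2C, stayed at 0. Their part in the members' counts was not tested. Exons of 32 members overlapped no exon of another gene, those of 8 overlapped a gene on the same strand and those of 26 a gene on the other strand. GRIP2 overlaps SLC6A6 and CAMK2A overlaps SLC6A7 in this way. The libraries were strand-specific, but whether strand was used in counting is not given in the sources used here, so reads of such pairs cannot be told apart with certainty.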

How the data were processed

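Libraries were made strand-specific from poly(A) RNA of both lines and read single-end over 65 bases. The submitters' processing notes name HISAT2 2.2.1, HTSeq and GRCh38. The authors deposited raw read counts per gene, without normalization, in 1 table per library, with 60683 Ensembl identifiers and 9 summary lines, which were left out of the totals. The annotation release is not given in the sources used here. For 60370 identifiers GENCODE release 44 gave symbols and coordinates. The reads carry no molecular identifiers, so intervals and floors cover counting error only.

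The members, the gene lists and the tests were chosen with earlier results of these data known. Counts were scaled by library total (CPM) and, for levels between genes, by exon length (RPKM). After filterByExpr, edgeR 4.0.16 in R 4.3.3 fitted 15780 genes in 10 A549 libraries and 15055 in 4 SUM159 libraries by quasi-likelihood, with Benjamini-Hochberg adjustment over all genes and a threshold of 0.05. Only contrasts without untreated or combination A549 libraries were tested in A549, since the others chose the members. All 10 A549 libraries still entered the filter and the dispersion. Alternatives were TMM, DESeq2 1.42.0, no filter, only the compared groups, the replicate block and each library left out. A crossed block was chosen after seeing the data. The fits were tested on simulated counts. A rule on level, largest change, list membership, neighbours and limits named 34 members and 6 genes outside the limits. The other members were named by role after their values were seen. Symbols of near-identical gene copies are given as annotated. Values of 2 members and 1 marker gene are not reported here.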

Additional observations from a re-analysis of the deposited data

Results flagged for a closer look

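In KRT6A, MYPN, SNAI2 and CCBE1 PF-06873600 went with opposite directions in the lines: both A549 libraries lay above both untreated ones and both SUM159 libraries lay below both untreated ones in CPM. The A549 direction follows from the choice of genes with 3 or fewer untreated counts, and the difference between the lines was not tested. The log2 differences in SUM159 were -1.99 for KRT6A, -0.60 for MYPN, -0.50 for SNAI2 and -0.24 for CCBE1. CCBE1 lost its call in SUM159 when the second PF-06873600 library was left out (adjusted p = 0.0523). With 2 libraries per group no test of single outlying libraries was possible.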

How the results depend on the processing

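The number of members depends on the limits. It was 14 with 0 counts in both untreated libraries, 19 with 100 counts in both combination libraries, and 88 to 112 when a single library per group was read. Reading 1 library per group, members at 40 or more counts numbered 5 to 7 with indisulam and 13 to 20 with PF-06873600 in A549, and members at 3 or fewer numbered 10 to 11 and 4 to 6. With the replicate block 42 members were higher with indisulam than with palbociclib, 53 with PF-06873600 than with palbociclib and 29 with PF-06873600 than with indisulam (6 lower), and in SUM159 37 were higher and 5 lower. The numbers come from the sample labels, which name no shared culture or day. Same-numbered libraries did not deviate together (correlations from -0.181 to 0.0427), and crossed numbers in the block gave 43 for indisulam over palbociclib. DESeq2 called 3 members lower with PF-06873600 than with indisulam, against 6, and the cause was not tested. Leaving out 1 library gave 30 to 35 members higher for indisulam over palbociclib, 48 to 50 for PF-06873600 over palbociclib, 23 to 27 higher and 4 to 5 lower for PF-06873600 over indisulam, and 34 to 40 higher and 4 to 5 lower in SUM159. Every alternative run kept the direction of each called member that it tested. Of the calls, 28 of 43, 46 of 55, 22 of 35 and 38 of 42 held under every run that tested the gene. Members below the filter of a run were not counted as lost there. With only the 2 compared groups in the model, 44 members were called for PF-06873600 over palbociclib. The floor of 3 counts per library, 0.142 to 0.23 CPM, was set by the rule and is not a limit of detection. Levels below it rest on fewer than 3 reads.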
